A study of Danio rerio with 6 samples.

Results

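The interferon response and antigen presentation genes of zebrafish are described here, in whole larvae at 72 hours post fertilization. The members were a fixed list of 45 gene symbols, matched to the symbol column of the deposited gene table, with the rows of a symbol and of the same symbol plus a numeric suffix summed. Of the 45 symbols, 42 were found among 37685 genes, on 49 rows. The symbols ddx58, irf2 and helz2 matched no row; ddx58 is an older name of rigi, which is a member under that name. The table lists irf2a and irf2b, and helz2a, helz2b and helz2c, whose values are given below as relatives and not as members.

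The GJB2-MO group held 3 libraries of AB strain larvae that had received an antisense morpholino named for GJB2 at the 1-cell stage, and the control group held 3 libraries of wild-type AB larvae. Morpholinos are short DNA-like molecules that pair with an RNA and hinder its translation or its splicing. GJB2 encodes the gap junction protein connexin 26, and the title of the series concerns hereditary deafness and mitochondrial apoptosis. No control oligonucleotide is named in the labels for the wild-type group, so effects of lowering the target and effects of injecting an oligonucleotide cannot be told apart. The number of larvae per library and whether libraries came from separate clutches are not given, so the p-values reflect only how these libraries vary, and some of that variation may be technical. The oligonucleotide is shown because it is the agent that separates the groups; it is written 5′ to 3′ as the labels give it, with no part marked by capitals.
GJB2-MO: taaagtgctccccaactcatcctgt

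Interferons are secreted proteins that cells release when sensors such as RIG-I and MDA5 in the cytosol, or cGAS with its adaptor STING, meet foreign or misplaced nucleic acid. They act on a receptor whose kinases, JAK1 and TYK2, activate STAT transcription factors, and these, with IRF9, switch on genes of antiviral effectors, of the sensors themselves and of MHC class I antigen presentation. In fish the virus-induced interferons are named interferon phi, and larvae use this innate response before lymphocytes mature.

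Each library held between 15720292 and 19743658 counts in the GJB2-MO group and between 14582030 and 16725570 in the control group. The first principal component, with 35.7% of the variance of log2 CPM, separated the groups. All 14 marker genes fixed for tissues of a larva (muscle, skin, liver, neurons, eye, blood and others) had reads; the insulin gene ins had the fewest, 13 in all 6 libraries together. gjb8, the zebrafish connexin gene taken here as nearest to the target, had 114, 14 and 16 counts in GJB2-MO libraries 1 to 3 and 7, 8 and 11 in control libraries 1 to 3, so its counts were not lower in the GJB2-MO group. A translation-blocking oligonucleotide need not lower its target RNA, and these counts do not check the labels. Library sizes were scaled by TMM, and levels below are CPM, TMM-scaled counts per 1000000, with mean ± SD over 3 libraries.

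Of the 42 members found, 6 were higher and 1 was lower in the GJB2-MO group at an adjusted p under 0.05 (edgeR quasi-likelihood test, Benjamini-Hochberg over all 22247 genes tested). The 6 included nmi, stat2, b2m, gbp1 and ifi44a4, and the lower gene was ifi44a5. Of all genes tested, 2.88% were called higher and 3.31% lower. By role, the called genes were 3 of 8 tested signalling members, 3 of 8 effectors, 1 of 4 antigen presentation members, and none of 7 sensors and adaptors or of 5 interferon regulatory factors. Of the 42 members, 32 passed the filter on low counts and 10 did not (cgasa, tlr3, ifnphi1, rsad2, cmpk2, mxa, mxb, mxe, tap2a and nlrc5). Among the 32, 30 reached the filter's level in every control library. The other 2, ifi44a4 among them, reached it only with the help of the GJB2-MO libraries. ifi44a5 is among the 30, but it lay under that level in every GJB2-MO library and passed through the controls. Over the 32 the median log2 fold change was 0.49, with 28 above 0 and 4 below, against a median of 0.0088 over all genes tested. All 3 GJB2-MO libraries stood above all 3 controls in 16 of the 32 and below them in 1, against 13.7% and 14.1% of all genes tested. DESeq2 called 8 members higher, adding dhx58 and irf1b, and 1 lower, where 2.49% and 3.07% of its genes were called. These members were picked with earlier results of the same data known, so these shares describe them and are no test of the list.

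**Figure D1:**
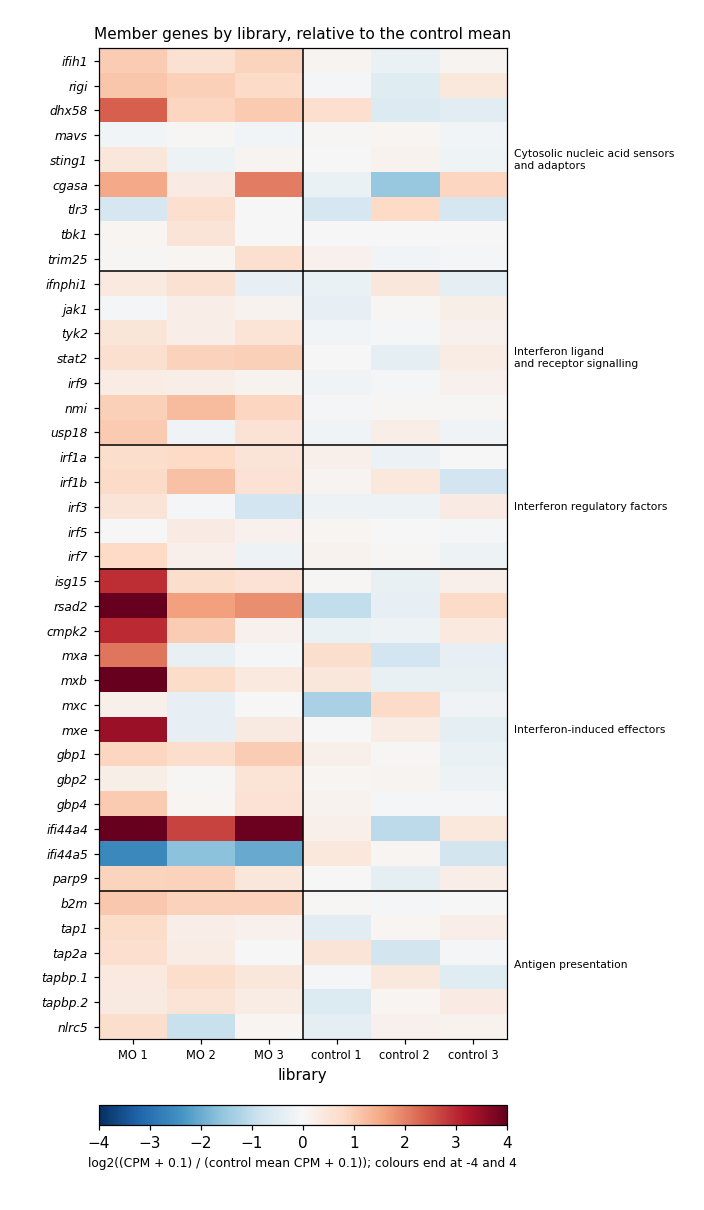
Level of 40 of the 42 members (rows, grouped by role) in each of the 6 libraries (columns, GJB2-MO libraries left of control libraries), as log2 of CPM plus 0.1 over the control mean plus 0.1; colours end at -4 and 4. isg15, rsad2, cmpk2, mxb and mxe are far darker in MO library 1 than in MO libraries 2 and 3, while nmi, b2m and gbp1 have a similar shade in all 3.

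Among the members 2 patterns stood out, though mavs, jak1, mxc and others showed neither. In one, all 3 GJB2-MO libraries stood at a similar level above the controls, as for nmi and b2m. In the other, GJB2-MO library 1 stood far above all other libraries, as for rsad2, isg15, mxb and mxe, genes that are classical markers of an interferon response.

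Among the signalling genes, nmi and stat2 rose. nmi, which encodes an interferon-inducible protein that binds STAT and MYC proteins (chromosome 9, 56427311 to 56431198; positions are those of the deposited table, on GRCz11), had 27.6, 34.8 and 26.2 CPM in GJB2-MO libraries 1 to 3, against 13.4, 14.6 and 14.8 CPM in control libraries 1 to 3. The groups were far apart, with the highest value in GJB2-MO library 2. The log2 fold change was 1.05 ± 0.12 (SE; edgeR adjusted p = 8.2e-04).
stat2, which encodes a subunit of the factor that switches on interferon-stimulated genes, had 7.57, 9.17 and 9.52 CPM in the GJB2-MO libraries and 4.84, 3.74 and 5.94 CPM in the controls. Its log2 fold change was 0.85 ± 0.19 (edgeR adjusted p = 0.0249). The groups did not overlap, but control library 3 came closest, and the call was lost when control library 1 or 2 or GJB2-MO library 2 or 3 was left out (edgeR adjusted p between 0.0637 and 0.0917), and also without robust estimation (0.0550).

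stat2 is also the called member whose reads were spread over several rows. Row stat2_2 held 135, 173 and 149 counts in GJB2-MO libraries and 63, 53 and 94 in controls, and row stat2_1 held 1, 1 and 2 against 7, 9 and 6. The row with the plain symbol held 1, 2 and 0 counts, against 0 in every control. The main row was higher and the small row lower in the GJB2-MO libraries; of the 3 rows only stat2_2 held enough counts to be tested, and it was called (log2 fold change 0.97 ± 0.21, edgeR adjusted p = 0.021). In TPM, which weights each row by its length, the sum of the rows was 2.77 ± 0.352 in GJB2-MO larvae against 2.18 ± 0.215 in controls (SD, n = 3 each), a smaller gap than in CPM.

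The kinase genes tyk2 and jak1, and irf9 and usp18, did not pass the test. tyk2, a receptor-associated kinase gene, had 9.42 ± 0.956 CPM in GJB2-MO larvae against 6.95 ± 0.774 CPM in controls, with no overlap (log2 fold change 0.44 ± 0.15, edgeR adjusted p = 0.111). jak1, the other kinase, stood at 9.01 ± 0.973 against 8.27 ± 1.62 CPM, and irf9, the DNA-binding partner of the STATs, at 13.5 ± 0.723 against 11.5 ± 1.29 CPM; both overlapped. usp18, which encodes a protease that removes ISG15 and dampens the receptor, had 2.04, 0.834 and 1.45 CPM against 0.83, 1.15 and 0.831 CPM, also overlapping. ifnphi1, the interferon gene on the list, was near the limit of detection, with 3, 4 and 1 counts in GJB2-MO libraries and 1, 3 and 1 in controls. No difference in the ligand was detectable at this depth.

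**Figure D2:**
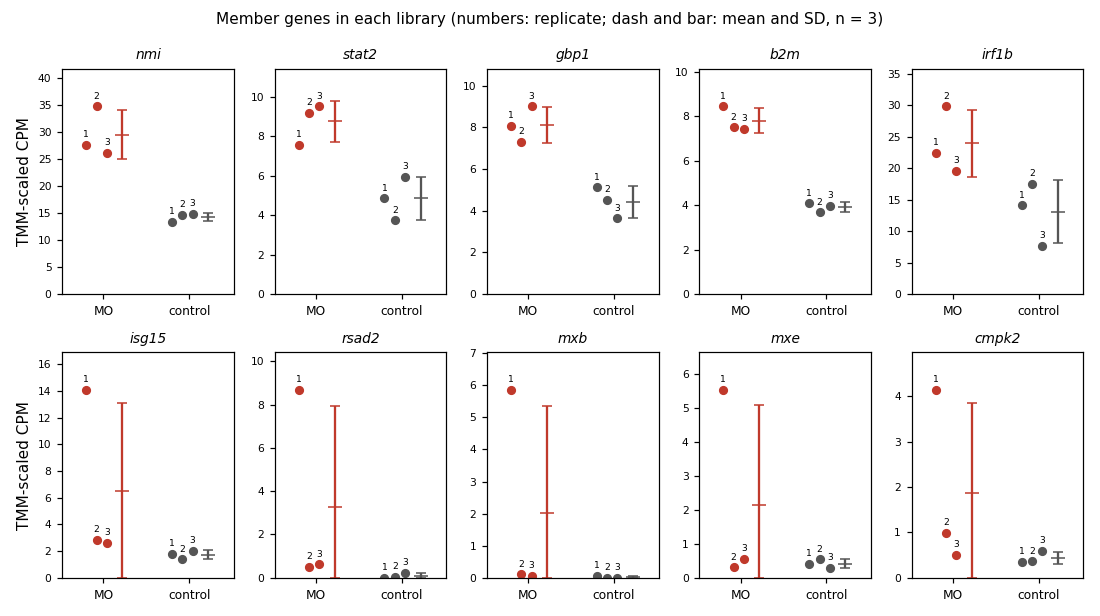
TMM-scaled CPM of 10 members in each library (points, numbered by replicate; GJB2-MO left of control), with mean and SD beside them (n = 3 each; bars that would pass below 0 end at 0). In the upper row the 3 GJB2-MO points of nmi, stat2, gbp1, b2m and irf1b lie above the control points; in the lower row GJB2-MO replicate 1 of isg15, rsad2, mxb, mxe and cmpk2 lies far above all other points.

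Among the sensors, the 3 genes of the RIG-I family stood higher in every GJB2-MO library than in any control, as did 13.7% of all genes tested. None of the 3 passed the threshold in edgeR. Before adjustment all 3 had p under 0.05, but the share of all genes at that level is not given here. ifih1, which encodes the double-stranded RNA sensor MDA5, had 3.92, 2.97 and 3.59 CPM against 2.08, 1.57 and 2.08 CPM (log2 fold change 0.87 ± 0.24, edgeR adjusted p = 0.0518). It passed narrowly in 2 of 13 alternative settings, with adjusted p between 0.0478 and 0.173 over all 13. rigi, which encodes the RNA sensor RIG-I, had 2.15, 1.93 and 1.70 CPM against 0.90, 0.663 and 1.31 CPM (1.01 ± 0.33 on the log2 scale, edgeR adjusted p = 0.0993). dhx58, which encodes LGP2, the regulator of both, had 10.4, 3.6 and 4.03 CPM against 3.11, 1.27 and 1.37 CPM. In each group library 1 was the high one, and the log2 fold change of 1.67 ± 0.60 was not called in edgeR (adjusted p = 0.192); DESeq2 called it (adjusted p = 0.00622, in a range of 0.00208 to 0.422 over 13 settings).

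The adaptors and the remaining sensors did not pass the test or held too few counts for it. mavs, the mitochondrial adaptor of RIG-I and MDA5, stood at 19.9 ± 1.2 CPM in GJB2-MO larvae against 20.6 ± 1.47 CPM in controls, with a log2 fold change of -0.05 ± 0.10. sting1, the adaptor of cGAS, stood at 2.76 ± 0.646 against 2.49 ± 0.288 CPM. tbk1, the kinase that both adaptors use, had 62.3, 83.7 and 59.7 CPM against 59.1, 58.7 and 59.1 CPM; library 2 of the GJB2-MO group was high and the others lay just above the controls (0.22 ± 0.12 on the log2 scale, edgeR adjusted p = 0.337). In TPM, a scale per length on which genes can be compared, tbk1 had the highest control level of all members, 31.6 ± 0.643 TPM, and nmi had 22.4 ± 1.66 TPM (SD, n = 3 each).
cgasa, the cytosolic DNA sensor gene, had 13, 5 and 17 counts in GJB2-MO libraries against 2, 0 and 7 in controls. The groups overlapped, and the ratio of the summed counts was 3.50 with a 95% exact interval of 1.65 to 8.29, which covers counting error only. tlr3, the endosomal receptor of double-stranded RNA, had 4 counts in the GJB2-MO group and 3 in the control group in all.
trim25, the ubiquitin ligase gene that acts on RIG-I, overlapped as a sum (4.35 ± 1.09 against 3.55 ± 0.40 CPM). Its plain row held 2, 2 and 49 counts in GJB2-MO libraries and 10, 5 and 2 in controls, while row trim25_1 held 38, 46 and 12 against 33, 41 and 30. In GJB2-MO library 3 the plain row was high and trim25_1 low.

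None of the 5 interferon regulatory factor genes passed the test in edgeR. Before adjustment 1 had p under 0.05, but the share of all genes at that level is not given here. irf1a and irf1b, the zebrafish copies of the transcription factor IRF1, were higher in every GJB2-MO library than in any control, as were 13.7% of all genes tested. irf1a had 1.82, 1.93 and 1.58 CPM against 1.25, 0.904 and 1.07 CPM (0.73 ± 0.29 on the log2 scale, edgeR adjusted p = 0.175). irf1b had 22.4, 29.9 and 19.6 CPM against 14.1, 17.5 and 7.66 CPM, with a wide spread in both groups (0.88 ± 0.35, edgeR adjusted p = 0.245). DESeq2 called irf1b (adjusted p = 0.0082); over 13 settings its adjusted p lay between 0.00668 and 0.413.
irf7, the factor that amplifies interferon production, had 7.96, 5.26 and 3.91 CPM against 4.98, 4.70 and 3.92 CPM. Library 1 was high, library 3 lay at the lowest control, and without library 1 the log2 fold change was 0.02 ± 0.23. irf3, which acts next to IRF7, had 3.81, 2.55 and 1.51 CPM against 2.28, 2.29 and 3.39 CPM, a log2 fold change of -0.01 ± 0.33 whose sign differed between settings. irf5 stood at 8.77 ± 1.04 against 7.81 ± 0.322 CPM and overlapped. Of the relatives outside the list, irf2a stood at 12.5 ± 2.89 against 12.9 ± 0.469 CPM, and irf2b at 16.2 ± 3.75 against 12.1 ± 0.754 CPM without overlap (edgeR adjusted p = 0.138).

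The effectors held the largest differences between libraries. isg15, which encodes a ubiquitin-like protein attached to other proteins during infection (chromosome 5, 20112032 to 20113286), had 255, 55 and 42 counts in GJB2-MO libraries 1 to 3, against 26, 23 and 34 in controls. rsad2, which encodes the antiviral enzyme viperin (chromosome 17, 35357454 to 35361333), had 157, 10 and 10 counts against 0, 1 and 4. cmpk2, a nucleotide kinase gene that lies beside rsad2 (chromosome 17, 35362882 to 35375602), had 75, 19 and 8 counts against 5, 6 and 10.
For isg15 and rsad2 every GJB2-MO library exceeded every control, and for cmpk2 library 3 lay within the controls. The log2 fold change of isg15 was 1.91 ± 0.85 (edgeR adjusted p = 0.298) and 0.67 ± 0.30 without GJB2-MO library 1. rsad2 and cmpk2 did not reach the filter on low counts. Without that filter their adjusted p-values in edgeR were 0.320 and 0.308, and in DESeq2 0.0525 and 0.0724. The ratio of the summed counts of rsad2 was 31.9 (95% exact interval 13.4 to 99.4, counting error only), and GJB2-MO library 1 had 15.1 times the mean CPM of libraries 2 and 3.

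The Mx genes, which encode dynamin-like GTPases that restrict viruses, split in the same way. mxb (chromosome 1, 7574351 to 7603573) had 106 counts in GJB2-MO library 1 and 2 and 1 in libraries 2 and 3, against 1, 0 and 0 in controls. Apart from that 1 library it was hardly detected. mxe (chromosome 9, 32824651 to 32839862) had 100, 6 and 9 counts against 6, 9 and 5, and mxa (chromosome 1, 7562323 to 7570219) had 44, 7 and 7 against 12, 4 and 6. In GJB2-MO libraries 2 and 3 both lay at control levels.
mxc, next to mxe on chromosome 9 (32805595 to 32818985), did not share this. It had 102, 75 and 77 counts in the GJB2-MO libraries, against 28, 139 and 74 in the controls, where control libraries 1 and 2 were the lowest and the highest of all. The deposited description of mxc reads multi sex combs, where that of mxe names myxovirus resistance. Whether this description bears on the counts of mxc was not tested. Of the relatives outside the list, mxf had 99, 129 and 65 counts against 40, 55 and 35 and was called higher (1.00 ± 0.24 on the log2 scale, edgeR adjusted p = 0.0347; 0.094 without GJB2-MO library 1).

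Of the 3 members that encode guanylate-binding proteins, GTPases that act on intracellular pathogens, gbp1 passed the test. gbp1 (chromosome 2, 42020915 to 42035314) had 8.07, 7.30 and 9.01 CPM in GJB2-MO libraries, against 5.12, 4.52 and 3.62 CPM in controls. The groups were separate and the log2 fold change was 0.88 ± 0.18 (edgeR adjusted p = 0.0161). The call was lost without control library 2 or 3 or GJB2-MO library 3, with edgeR adjusted p between 0.0538 and 0.0681. gbp2, its neighbour (chromosome 2, 42005196 to 42017579), had 5.37 ± 0.967 against 4.36 ± 0.537 CPM and overlapped, and gbp3, which is not a member, stood at 7.58 ± 0.805 against 7.77 ± 1.22 CPM. gbp4, with its 2 rows summed, had 42, 22 and 26 counts against 17 in each control. In CPM its groups overlapped, and it was not called (0.67 ± 0.34 on the log2 scale, edgeR adjusted p = 0.286; 0.37 without GJB2-MO library 1).
parp9, which encodes a member of the ADP-ribosyltransferase family, had 3.43, 3.49 and 2.52 CPM against 1.80, 1.39 and 2.2 CPM, with no overlap (0.81 ± 0.26, edgeR adjusted p = 0.0967). The helicase genes named after helz2 stood outside the list; helz2a had 112, 32 and 25 counts against 11, 13 and 15, and helz2b had 134, 147 and 126 against 69, 79 and 100. Neither passed the test (edgeR adjusted p = 0.120 and 0.0572). helz2c was near the limit of detection, with 1, 2 and 0 counts against 4, 2 and 3.

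The strongest call by size concerned ifi44a4, an interferon-induced gene on an unplaced scaffold. In every control ifi44a4 lay under the level of the filter on low counts, so it was tested only through the GJB2-MO libraries. ifi44a4 had 70, 24 and 48 counts in GJB2-MO libraries and 2, 0 and 3 in controls. Its log2 fold change was 4.60 ± 0.69 (edgeR adjusted p = 0.00532), and its ratio of summed counts was 25.6 (95% exact interval 10.7 to 80.0, counting error only). Its relative ifi44a5 on chromosome 1 (7966551 to 7978442) did the opposite, with 4, 10 and 6 counts against 36, 32 and 18, and was the 1 member called lower (-2.26 ± 0.45, edgeR adjusted p = 0.0161). That call was lost without control library 1 or 2 or GJB2-MO library 1 or 3 (edgeR adjusted p between 0.0579 and 0.0623). The counts of the pair together were 74, 34 and 54 in GJB2-MO libraries against 38, 32 and 21 in controls, which overlapped. With the pair fitted as 1 gene, chosen after seeing the data, the log2 fold change was 0.68 ± 0.36 (edgeR adjusted p = 0.310). Whether reads of related copies were shared between these genes was not tested. Of the relatives outside the list, ifi44c2 had 36, 35 and 19 counts against 5, 15 and 17, and ifi44g had 49, 51 and 36 against 24, 26 and 32. Neither passed the test (edgeR adjusted p = 0.131 and 0.197). ifi44f4 lay lower, at 1.82, 1.46 and 1.95 CPM against 2.01, 2.83 and 2.49 CPM (-0.49 ± 0.26 on the log2 scale, edgeR adjusted p = 0.307). ifi44f3 hardly differed (0.06 ± 0.42, edgeR adjusted p = 0.952). The other relatives of this name did not pass the filter on low counts.

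**Figure D3:**
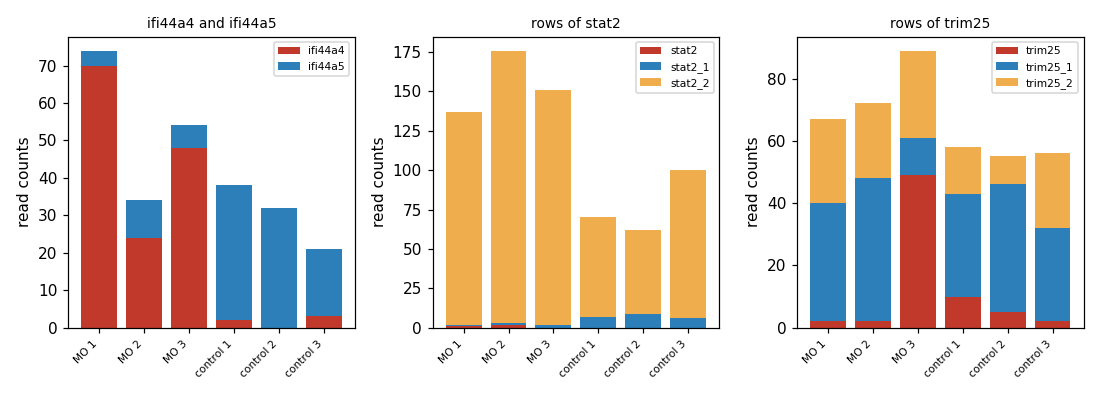
Read counts per library (bars, stacked; GJB2-MO libraries left of control libraries) of ifi44a4 and ifi44a5, of the 3 rows of stat2 and of the 3 rows of trim25. ifi44a4 makes up most of the pair in the GJB2-MO libraries and ifi44a5 in the controls, while stat2_2 holds nearly all reads of stat2 in both groups.

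Of the 6 antigen presentation members, the gene of the MHC class I light chain passed the test. b2m, which encodes beta-2-microglobulin (chromosome 4, 12793396 to 12795493), had 8.45, 7.5 and 7.44 CPM in GJB2-MO libraries, against 4.08, 3.68 and 3.98 CPM in controls. The libraries of each group were close to one another and the log2 fold change was 0.99 ± 0.16 (edgeR adjusted p = 0.0046). The peptide transporter gene tap1 had 4.64, 3.28 and 3.09 CPM against 2.01, 2.89 and 3.27 CPM and overlapped (0.43 ± 0.25, edgeR adjusted p = 0.365).
tapbp.1 and tapbp.2, tandem copies of tapasin that load peptides onto MHC class I (chromosome 19, 7038693 to 7043351 and 7066494 to 7070661), stood at 4.04 ± 0.475 against 2.78 ± 0.898 CPM and at 5.82 ± 0.538 against 4.38 ± 1.29 CPM. Both overlapped between groups. tap2a, a transporter gene of the same region, had 3, 2 and 1 counts against 2, 0 and 1. nlrc5, the activator of MHC class I genes, had 15, 4 and 8 counts against 5, 9 and 9, and no difference was detectable at this depth. Outside the list, the relative tapbpl had 3.26, 4.74 and 3.97 CPM against 1.80, 2.11 and 1.25 CPM. It was called higher (1.21 ± 0.26 on the log2 scale, edgeR adjusted p = 0.0209, and 0.0348 without GJB2-MO library 1). The relative tap2t stood at 6.52 ± 0.427 against 5.70 ± 0.352 CPM and was not called (edgeR adjusted p = 0.504).

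Leaving out GJB2-MO library 1 showed which members rest on it. The same 6 members were called higher without it, where 1.45% of all genes were called higher and 1.63% lower, and ifi44a5 missed the threshold (edgeR adjusted p = 0.0598). The median log2 fold change over the 32 tested members was then 0.40, against 0.0048 over all genes. By a limit chosen after seeing the data, GJB2-MO library 1 was at least 2-fold above the next highest library in 8 of the 39 members with at least 20 counts (among them dhx58, isg15, rsad2, cmpk2, mxa, mxb and mxe), or 20.5%. Over all 24764 genes with at least 20 counts it was so in 0.444%. None of the 5 other libraries led any member in this way, and over all genes they did so in 0.25% to 0.343%. Of the other interferon-induced genes, 3 of 35 with that many counts had the pattern: ifit8 with 41, 0 and 0 counts against 1, 0 and 1, ifit10 with 26, 0 and 0 against 1, 3 and 0, and znfx1 with 234, 100 and 96 against 78, 56 and 75. gjb8, given above, had it too, and so did helz2a, ifi44a1, irf4l and mhc1lda among the family relatives outside the list. Of these, ifi44a1, irf4l and mhc1lda held only 35, 32 and 22 counts in all. The other family relatives with at least 20 counts did not have it. The floor of 20 counts was taken over all libraries together. A gene could therefore reach it through GJB2-MO library 1 alone, as mxb, ifit8 and ifit10 did.

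**Figure D4:**
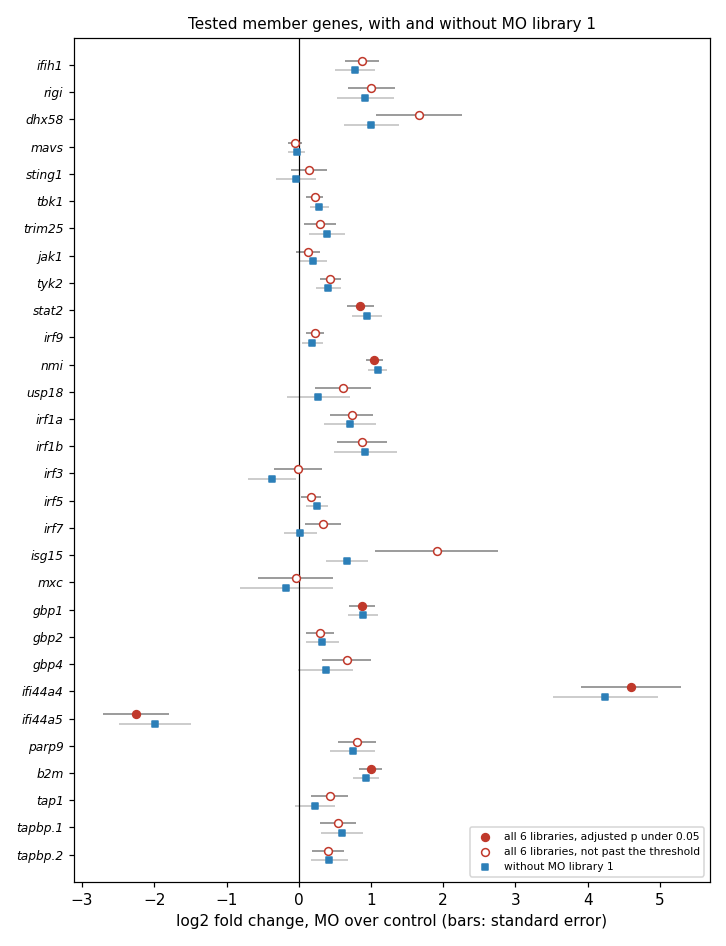
log2 fold change of 30 of the 32 tested members, GJB2-MO over control, with standard errors; circles are all 6 libraries (filled where the adjusted p was under 0.05) and squares the fit without GJB2-MO library 1. isg15 lies at 1.91 with all libraries and at 0.67 without that library, while nmi lies at 1.05 and 1.09.

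Several members lie side by side. rsad2 and cmpk2 are neighbours on chromosome 17, mxa and mxb on chromosome 1, and mxc and mxe on chromosome 9. nmi, ifih1 and parp9 are also on chromosome 9 but not beside mxc and mxe, starting at 56427311, 51147764 and 23758507. gbp1 and gbp2 are neighbours on chromosome 2. Neighbouring copies of a family can share reads, so the levels of mxa and mxb, of mxc and mxe and of gbp1 and gbp2 are uncertain to that extent. No source used here says whether strand entered the counting.

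Other genes of the pathway, from lists chosen without values but with earlier results known, were read in the same fit, in which 2.88% of all genes were called higher and 3.31% lower, with a median log2 fold change of 0.0088. Of 31 other interferon-induced genes tested, 5 were higher and none lower, with a median log2 fold change of 0.24. uba7, which encodes the enzyme that activates ISG15 in mammals, had 6.91, 6.10 and 5.48 CPM against 2.49, 2.11 and 2.08 CPM (1.47 ± 0.19, edgeR adjusted p = 0.0017). ftr86, a fish TRIM gene, rose by 0.83 ± 0.12, parp14rs3 by 0.73 ± 0.13 and xaf1 by 1.40 ± 0.31 (edgeR adjusted p of 0.003, 0.00709 and 0.0227); the call of xaf1 was lost without GJB2-MO library 1 (0.0963).
Of 33 ligands, receptors and feedback genes tested, 4 were higher and 4 lower, with a median of 0.01. socs1a, which encodes a feedback inhibitor of JAK kinases, had 4.70, 4.59 and 4.29 CPM against 11.4, 11.4 and 8.37 CPM (-1.2 ± 0.16, edgeR adjusted p = 0.00228), and cisha, of the same inhibitor family, fell by 0.83 ± 0.09 (edgeR adjusted p = 5.7e-04). pias1b, which encodes a protein that restrains STAT signalling in mammals, rose by 1.5 ± 0.25 and stat3 by 0.36 ± 0.08 (edgeR adjusted p = 0.0079 and 0.020); without GJB2-MO library 1 the call of stat3 was lost (0.074). Of 21 sensor partners 1 was higher, the Toll-like receptor gene tlr22 (0.89 ± 0.20, edgeR adjusted p = 0.0231; 0.0808 without GJB2-MO library 1), and 1 lower, the RNA helicase gene ddx3xb (-0.46 ± 0.07, edgeR adjusted p = 0.00532).

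Against the same shares of all genes, of 27 MHC and peptide loading partners tested, 7 were higher and 3 lower, with a median of 0.22. Without GJB2-MO library 1, 4 were higher and 1 lower, where 1.45% of all genes were called higher and 1.63% lower. The class I gene mhc1zba had 38.5, 39.0 and 36.7 CPM against 22.8, 19.6 and 25.2 CPM (0.76 ± 0.10, edgeR adjusted p = 0.00158), and mhc1uma rose by 1.5 ± 0.30 (edgeR adjusted p = 0.0167). erap1b, a peptide-trimming enzyme gene, rose by 0.87 ± 0.14 (edgeR adjusted p = 0.00556). The chaperone gene calr3b fell by 0.53 ± 0.10 (edgeR adjusted p = 0.0162). Over the whole class I family by name, 3 of 15 tested genes were higher and none lower. The call of mhc1zca, among these 3, was lost without GJB2-MO library 1 (edgeR adjusted p = 0.0772). Class I genes are many, similar and variable between fish, so reads can be shared between them. Of 6 immunoproteasome and activator genes tested none passed in edgeR over all genes, with psmb10 at 0.66 ± 0.20 (edgeR adjusted p = 0.0739) and psme2 at 0.50 ± 0.16 (0.0917). Before adjustment 3 of the 6 had p under 0.05, but the share of all genes at that level is not given here.

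Markers of blood cells were measured beside these genes, since macrophages also express interferon-induced and MHC genes. In whole larvae, more cells of a type and more RNA per cell cannot be told apart. Of all genes, 2.88% were called higher and 3.31% lower; of 16 macrophage markers tested, 5 were higher and none lower. For instance, mpeg1.2, a macrophage perforin gene, had 37.8, 44.3 and 45.5 CPM against 14.7, 22.2 and 18.8 CPM (1.2 ± 0.14, edgeR adjusted p = 0.00248), and ctss2.2, a cathepsin gene, rose by 1.02 ± 0.10 (edgeR adjusted p = 3.6e-04). Summed without apoeb, which holds 89.6% of the list's level and is used by many tissues, the macrophage markers stood at 163, 190 and 199 CPM in GJB2-MO libraries 1 to 3, against 126, 122 and 123 CPM in controls. Over the whole list the sums were 1675, 1731 and 1593 CPM against 1269, 1242 and 1399 CPM, and the groups did not overlap either way.
The neutrophil list without cpa5, a gene used by the pancreas, stood at 150 to 201 CPM against 156 to 174 CPM, which overlapped. With cpa5, which holds 86.1% of the list's level, the sums were 1332 to 1723 CPM against 871 to 1095 CPM, which did not overlap. Those sums are mostly cpa5 and give no level of neutrophils. Of the 10 tested, 2 were higher and none lower. Pan-leukocyte markers without arpc1b stood at 130 to 146 CPM against 102 to 123 CPM, with 1 of 10 higher (spi1a, edgeR adjusted p = 0.0259; 0.0761 without GJB2-MO library 1). Of 9 lymphoid markers tested none was called in edgeR. Before adjustment 1 had p under 0.05, but the share of all genes at that level is not given here. The sum of the lymphoid list without tox stood at 21.4 to 22.6 CPM against 19.1 to 21.2 CPM. With tox, which holds 65.1% of the list's level, the sums were 54.6, 61.2 and 63.6 CPM against 60.4, 63.3 and 60.2 CPM, which overlapped. cd8a was at 0 in all 6 libraries. The part of these blood cells in the members' differences was not tested.

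**Figure D5:**
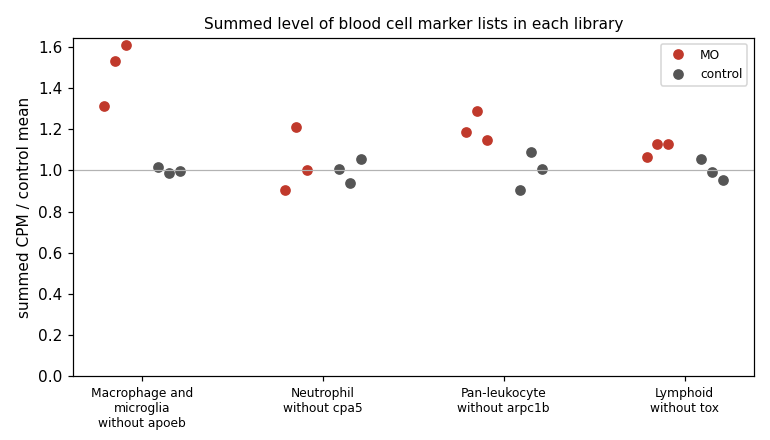
Summed CPM of 4 lists of blood cell markers in each library, divided by the control mean (points; GJB2-MO left of control; the most abundant gene of each list left out). The 3 GJB2-MO points of the macrophage list lie above the 3 control points, and the neutrophil points, drawn without cpa5, overlap.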

How the data were processed

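RNA was sequenced from 6 poly-A-selected libraries of whole larvae, per the labels' protocols. The deposited table holds read counts as whole numbers per row, FPKM and TPM; per its headers, the authors' FPKM and TPM are scaled by row length and library. HISAT2, StringTie 1.3.1 and RSEM on GRCz11 are named in the submitters' processing notes, with no role or order; the way rows were counted was not given in the sources used here. FPKM was not used further.

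Counts of the 53709 rows were summed by gene (16024 rows carry a suffix) and fitted with edgeR 4.0.16 in R 4.3.3: filterByExpr (min.count 10, min.total.count 15), TMM, quasi-likelihood with robust estimation, no covariate, Benjamini-Hochberg adjustment. The SE is the log2 fold change over the root of F. TPM gave levels between genes. DESeq2 1.42.0 and the other alternatives are in the closing part. The fit was tried on simulated counts with the same dispersion in every gene and no outlying library. That trial does not cover genes that stand high in a single library. Exact intervals at 95% (Clopper-Pearson) cover counting error only.

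Members and lists were chosen with earlier results of these data known. 2 members count in the totals, but their own results are not reported here; all other members are named, with family relatives and gjb8; of other lists, up to 4 called genes with the smallest adjusted p, or up to 2 where none passed. The library 1 pattern, ifit8, ifit10, znfx1, ifi44a1, irf4l, mhc1lda and the helz2 genes were chosen after their values were seen. Promoter and protein sequences were not used here.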

Additional observations from a re-analysis of the deposited data

How the results depend on the processing

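The count of members called higher was 6, and in the 13 alternatives it lay between 4 and 8; leaving out 1 library gave 4 to 6. nmi, b2m and ifi44a4 were called in every alternative in which they were tested (ifi44a4 had too few counts for the filter of 50). Members called lower numbered 1, then 0 with at least 50 counts in 3 libraries, where ifi44a5 was not tested, and 0 to 1 without 1 library. All genes called numbered 1378, and 579 to 1070 without 1 library. Pathway partner genes called numbered 25 (10 to 17 without 1 library) and blood cell marker genes 8 (5 to 7). Adding ifi44a4 to ifi44a5 took 4.60 to 0.68 (adjusted p = 0.310). Signs turned for uncalled members only: leaving out 1 library gave -0.041 to 0.30 for sting1, -0.024 to 0.25 for jak1, -0.38 to 0.26 for irf3 and -0.42 to 0.59 for mxc, and the replicate block gave 0.13 for mxc; the cause was not tested. Equal replicate numbers did not pair the libraries (correlations of -0.029, 0.05 and -0.002). With the replicate number as a block, 1362 genes were called, and 8 members were called higher, adding dhx58 and irf1b. The comparison of promoter motifs was not run. At these depths 10 members stayed under the filter on low counts. For those with few counts in every library, only large differences could show. rsad2, cmpk2, mxa, mxb and mxe held most of their reads in GJB2-MO library 1, and the filter asks for its level in several libraries.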
